A study of Mus musculus with 10 samples.

Results

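The genes described here are those in which mouse hepatocyte-like cells lay outside the range of both other cell kinds of the study, the embryonic stem cells they had been made from and the adult hepatocytes they were meant to resemble. A gene was taken as above where all 3 hepatocyte-like arrays lay above all 7 other arrays, and as below where all 3 lay below them. Of 22180 genes measured, 3024 met the rule, 2012 of them above (9.07%) and 1012 below (4.56%). The array values themselves chose these genes, so their distances from the other kinds describe them and are no independent test.

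The study hybridised RNA of 4 samples of undifferentiated embryonic stem cells, 3 of hepatocyte-like cells differentiated from embryonic stem cells and 3 of adult hepatocytes from liver to Affymetrix arrays. All 10 samples, controls included, carry a C.FVB strain label with Tg(CAG-luc, GFP)L2G85Chco/FathJ, a transgene for luciferase and green fluorescent protein driven by the broadly active CAG promoter. The label gives a passage below 20 for every sample, adult hepatocytes included. The sources used here do not give the differentiation protocol, its length, the number of stem cell clones or the age of the mice. The titles number the samples as biological replicates but do not say which came from separate cultures or animals, so p-values measure only the spread between these samples. The number of arrays limits the precision.

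Hepatocytes are epithelial cells that secrete plasma proteins and carry out much of the body's amino acid, fatty acid and one-carbon metabolism. They are reached in the embryo by way of endoderm and hepatoblasts, while the connective tissue of liver comes from mesoderm and makes matrix and contractile fibres. Mesenchymal cells of many tissues use the same matrix and contractile genes, which TGF-beta and YAP signalling are known to regulate.

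The label hepatocyte-like was set against liver markers first. Of 36 measured genes for plasma proteins and liver enzymes, 0 lay above both other kinds and 2 lay below (5.56%, against 4.56% of all genes). The list's median difference from the midpoint of the other kinds was -3.26. The mean log2 level of this list was 5.10, 5.32 and 6.13 in hepatocyte-like replicates 1, 2 and 3, against 4.92 to 5.05 in stem cells and 11.74 to 11.85 in adult hepatocytes. Albumin (Alb) was the plainest case, at 4.85, 5.15 and 10.8 in hepatocyte-like cells and 13.42, 13.48 and 13.42 in adult hepatocytes. Replicate 3 thus stood apart, with an albumin level well over those of replicates 1 and 2. Nanog, a pluripotency factor, read 5.08, 5.09 and 7.12 in the same replicates, again highest in replicate 3. Without replicate 3 the rule took 2573 genes above and 1666 below, and counts that moved by over 1.5 times without it are given both ways. Leaving out replicate 1 or 2 also raised the number below, to 1556 or 1552, as the rule then asks less. In these bulk samples, fewer cells of a type and less RNA per cell cannot be told apart.

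Hepatocyte-like cells lay beyond the others less often than either other kind did. The same rule gave 4361 genes for embryonic stem cells, 2644 above and 1717 below, and 6547 for adult hepatocytes, 3093 above and 3454 below. The groups hold different numbers of arrays, so these counts are not on an equal footing. Among the genes above, the smaller of the 2 distances, that to the nearer kind, had a median of 1.01 on the log2 scale with quartiles at 0.643 and 1.6. For 327 of them it was at least 2 and for 36 at least 4. Genes below lay closer, at a median distance of 0.597 from the nearer kind with 53 at least 2 away and 4 at least 4 away.

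A stricter call asked that limma's differences from each kind separately pass an adjusted p of 0.05 (Benjamini-Hochberg over all genes) with the same sign and a log2 difference of at least 1. It was met by 1059 genes on the higher side (4.77% of all tested) and 244 on the lower (1.10%). Of these, 1014 and 235 also met the rule of no overlap. "Higher" and "lower" are used below for genes that met this call. For genes chosen by the rule the call rests on the same values that chose them, so it only sets the size of a distance against the spread between arrays. The single contrast with the midpoint of both other kinds passed in 1839 genes higher (8.29%) and 1477 lower (6.66%). That contrast does not ask for a state beyond both, and 780 of the higher and 1233 of the lower were not called against each kind separately.

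**Figure D1:**
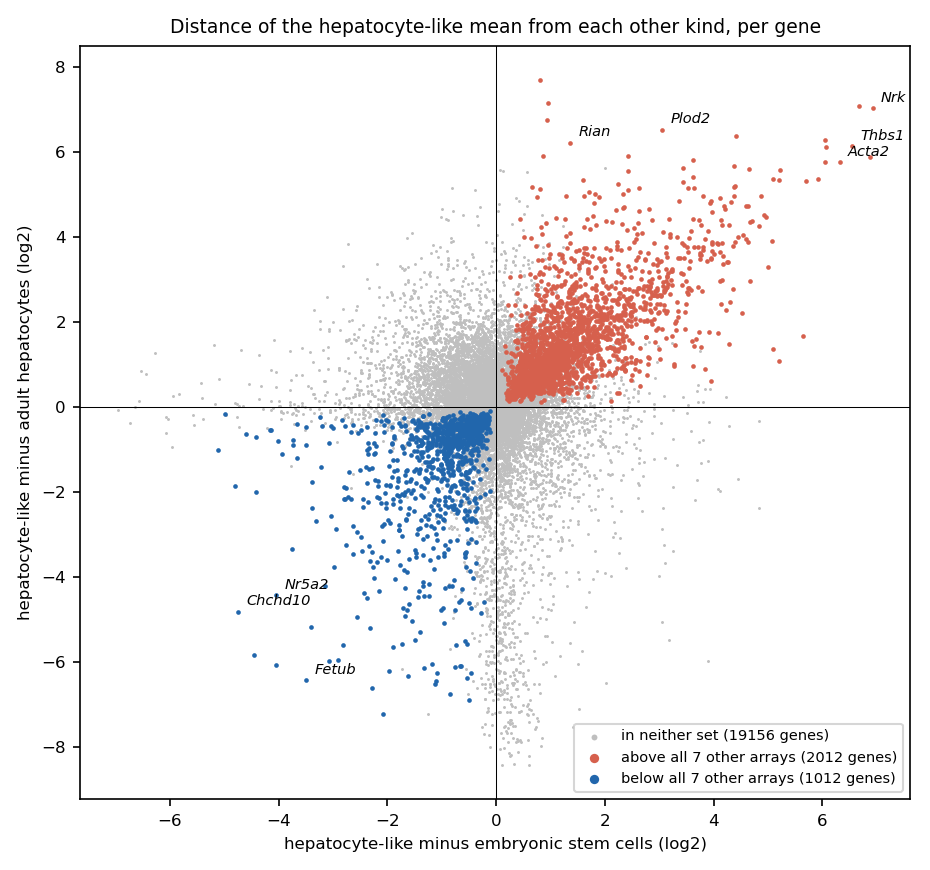
Each point is 1 of 22180 genes, placed by the log2 difference of the hepatocyte-like mean (3 arrays) from the embryonic stem cell mean (4 arrays, horizontal) and from the adult hepatocyte mean (3 arrays, vertical). The 2012 genes above all other arrays fill the upper right, reaching Nrk at 6.92 from the nearer kind, and the 1012 below fill the lower left, reaching Chchd10 at -4.75.

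The difference between the other kinds was not used by the rule. Of the 1014 genes both above and called, 789 (77.8%) did not differ between adult hepatocytes and stem cells by the same thresholds, 166 (16.4%) were lower in adult hepatocytes and 59 (5.82%) were higher. Over all genes tested these 2 calls were made in 15.6% and 11.0%. Of the 235 genes below and called, 131 (55.7%) did not differ in this way, 90 (38.3%) were higher in adult hepatocytes than in stem cells and 14 (5.96%) lower. Cases of a middle level in stem cells were thus more common below than above. In 303 of the 1014, both other kinds had a mean log2 level under 5.5, a mark used here for dim genes, and the hepatocyte-like mean lay over it.

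The 15 genes farthest above both kinds included matrix genes (Thbs1, Tnc, Postn, Col1a1) and actin-binding or contractile genes (Acta2, Gsn, Cnn2), but also others. In 9 of the 15 (Nrk, Ptgs2, Thbs1, Tnc, S100a6, Postn, Ctla2a, Aff2 and Anxa3) both other kinds had a mean under 5.5, so the order of distances among these is not measured. Nrk, a germinal centre kinase family member known from placenta and embryonic muscle, had the largest fitted distance. It read 10.73, 11.07 and 10.96 in hepatocyte-like cells, 4.23, 4.22, 4.15 and 3.41 in stem cells and 3.84, 3.75 and 4.11 in adult hepatocytes. The nearest arrays of the 2 sides were 6.51 apart, and the difference was 6.92 ± 0.21 (SE) from stem cells and 7.03 ± 0.23 from adult hepatocytes. Ptgs2, the inducible prostaglandin synthase, read 10.54, 11.25 and 11.91 against 4.32, 4.62, 4.8 and 4.53 in stem cells and 4.08, 4.2 and 4.15 in adult hepatocytes. Its highest level was in replicate 3, and every array of the other kinds lay 5.74 or more below its lowest hepatocyte-like array.

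Thbs1 and Tnc, secreted matricellular proteins that modulate cell adhesion, followed. Thbs1 read 11.59, 11.26 and 9.95 in hepatocyte-like cells, 4.53, 4.12, 4.44 and 4.46 in stem cells and 4.93, 4.95 and 4.5 in adult hepatocytes. Tnc read 11.44, 11.92 and 8.58 against 4.68, 4.47, 4.39 and 4.78 in stem cells and 4.48, 4.72 and 4.4 in adult hepatocytes. Both were lowest in replicate 3 among the hepatocyte-like arrays, Tnc by over 2 log2 units, and both stayed clear of all 7 others, by 5.0 and 3.81. Postn, a matrix protein of periosteum and fibrous tissue, read 11.28, 10.37 and 9.21 against 3.43, 3.42, 3.3 and 3.47 in stem cells and 5.01, 4.25 and 3.95 in adult hepatocytes, and was again lowest in replicate 3.

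S100a6, Anxa2 and Anxa3 encode calcium-binding proteins, the latter pair being annexins that attach to membranes. S100a6 read 9.8, 11.52 and 10.69 in hepatocyte-like cells against 4.35, 5.52, 4.49 and 4.11 in stem cells and 4.48, 4.38 and 4.28 in adult hepatocytes. Anxa2 read 11.18, 11.41 and 11.15 against 5.42, 6.15, 6.35 and 6.13 in stem cells and 5.83, 5.71 and 5.47 in adult hepatocytes, with hardly any spread between hepatocyte-like arrays. Anxa3 lay 5.09 from its nearer kind. Of 26 annexin and S100 genes measured, 10 lay above, 0 below and 8 were higher by the call. The list's median difference from the midpoint was 0.23, and 11 of the 26 had a hepatocyte-like mean under 5.5.

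The remaining genes of the first 15 were the protease inhibitor-like Ctla2a (5.77 from the nearer kind), the peripheral myelin protein gene Pmp22 (5.36), the chromatin-associated Aff2 (5.31), the actin-severing Gsn (4.88), and Acta2, Col1a1 and Cnn2, described below. Each of the 15 kept its call in every alternative setting tried.

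**Figure D2:**
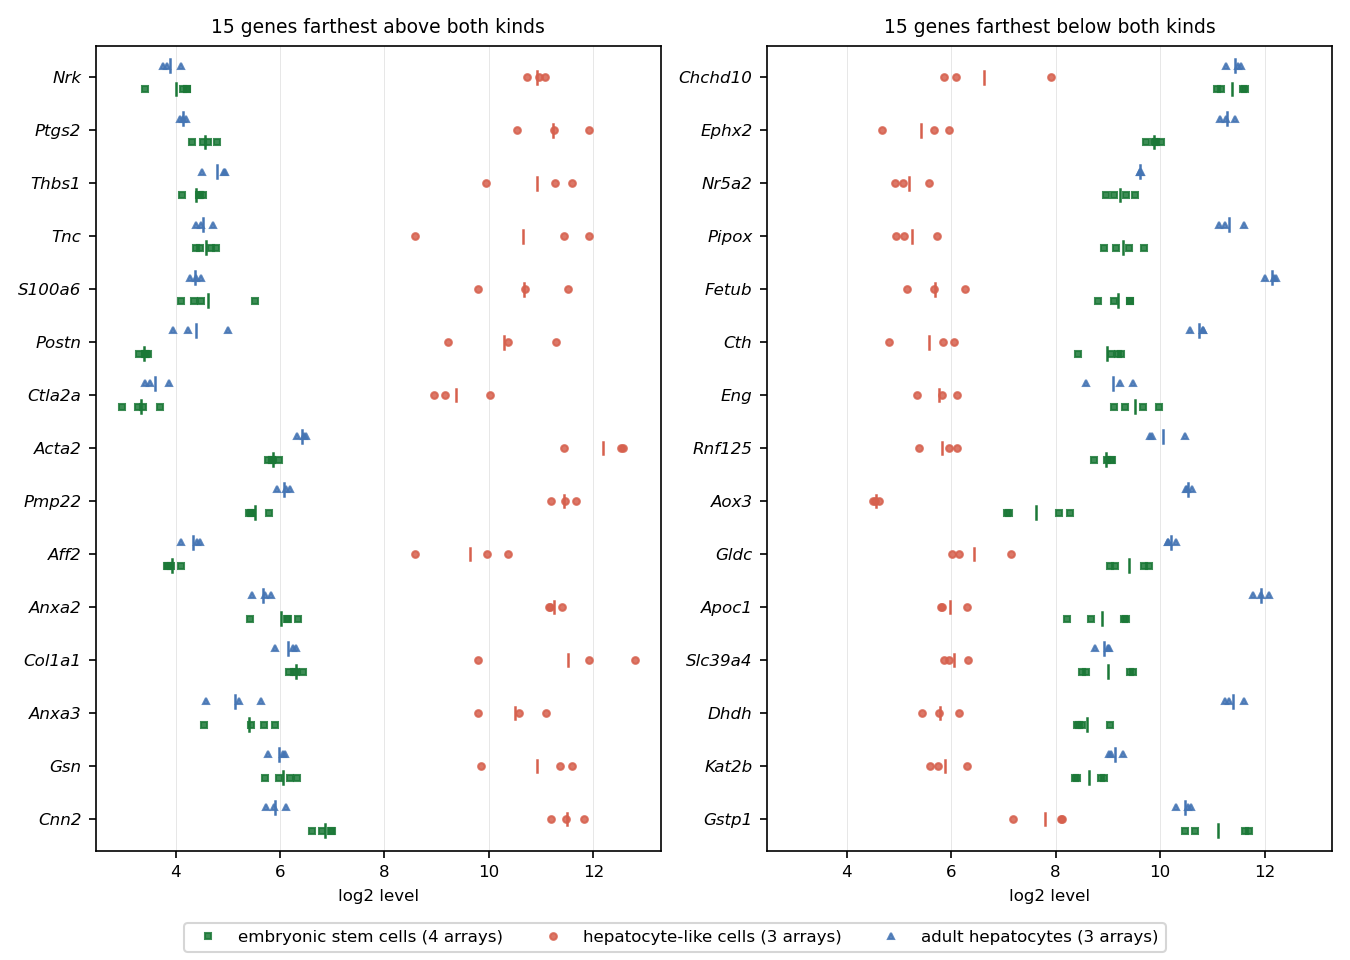
Log2 level of the 15 genes farthest above (left) and the 15 farthest below (right) the nearer of the other kinds, 1 point per array, with a vertical bar at each group mean. In all 30 genes the 3 hepatocyte-like arrays stand apart from the 7 others. Tnc, Col1a1 and Chchd10 show the wide spread between hepatocyte-like arrays, with replicate 3 nearest to the other kinds.

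Contractile and actin-bundling genes showed the largest share above among 38 gene lists. Of 28 measured, 23 lay above (82.1%, against 9.07% of all genes), 0 lay below and 21 were higher by the call. Their median difference from the midpoint was 2.43, against -0.05 over all genes. Acta2, smooth muscle actin, read 12.54, 12.57 and 11.44 in hepatocyte-like cells, 5.99, 5.85, 5.77 and 5.85 in stem cells and 6.45, 6.32 and 6.49 in adult hepatocytes. The hepatocyte-like arrays lay 4.94 above the next highest, with replicate 3 the lowest of them. Cnn2, a calponin that binds actin, read 11.82, 11.48 and 11.19 against 6.62, 6.81, 6.97 and 7.0 in stem cells and 5.73, 5.88 and 6.11 in adult hepatocytes, an order in which stem cells also exceeded adult hepatocytes, by less (-0.95 ± 0.18 for adult hepatocytes minus stem cells, limma adjusted p = 0.000893). The filamin Flnc lay 3.84 from its nearer kind, the transgelin Tagln 3.36, and the tropomyosins Tpm1 and Tpm2 3.26 and 2.99.

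The members of the contractile list differed in their spread. Tpm1 read 9.98, 10.19 and 10.2 in the 3 hepatocyte-like arrays, almost level, while enteric actin Actg2 read 7.89, 9.53 and 5.56 and smooth muscle calponin Cnn1 read 8.47, 7.39 and 6.65. Actg2 stayed above its highest other array (4.68, 4.97 and 5.08 in adult hepatocytes) by only 0.47. Without hepatocyte-like replicate 2 the distance of Actg2 was 1.81 in place of 2.75. The non-muscle myosin genes Myh9 (1.59) and Myh10 (2.63), the focal adhesion genes Vcl (2.0) and Zyx (2.48) and the filamin Flna (2.33) were higher as well. Pdlim5 and Smtn lay above without meeting the call, at 0.71 and 0.66.

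Since these genes stood together, their promoter windows were read from the RefSeq table of GRCm38.p6. Each window begins 250 bases before an annotated start and runs past it, and shares were counted over the whole window. The CArG box, the site bound by serum response factor, is well known from promoters of actin and calponin genes, and it was searched in its strict form on both strands. It was found in 3 of 24 windows (12.5%) belonging to 20 of the contractile genes above. It was present in 1.63% of all 32851 windows in the table and in 1.84% of the windows of genes called higher. For these 3 windows, the 250 bases before the start are printed 5′ to 3′ on the gene's strand. The CArG box is in capitals, to show where it lies. Counted from the gene's start, it begins at -56 in Cnn2, -161 in Myl9 and -227 in Vcl.
Cnn2 (chr10:79988350-79988599, plus strand): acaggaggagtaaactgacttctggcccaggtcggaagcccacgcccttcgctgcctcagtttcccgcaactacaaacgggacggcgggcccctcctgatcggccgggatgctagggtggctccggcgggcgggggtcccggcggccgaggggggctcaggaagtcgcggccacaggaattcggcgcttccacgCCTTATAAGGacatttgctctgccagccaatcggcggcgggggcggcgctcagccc
Myl9 (chr2:156775214-156775463, plus strand): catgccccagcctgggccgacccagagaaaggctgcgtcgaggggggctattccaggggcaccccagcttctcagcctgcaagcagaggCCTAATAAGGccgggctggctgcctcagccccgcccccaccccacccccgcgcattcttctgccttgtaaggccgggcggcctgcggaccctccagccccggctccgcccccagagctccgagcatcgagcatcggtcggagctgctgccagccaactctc
Vcl (chr14:20929148-20929397, plus strand): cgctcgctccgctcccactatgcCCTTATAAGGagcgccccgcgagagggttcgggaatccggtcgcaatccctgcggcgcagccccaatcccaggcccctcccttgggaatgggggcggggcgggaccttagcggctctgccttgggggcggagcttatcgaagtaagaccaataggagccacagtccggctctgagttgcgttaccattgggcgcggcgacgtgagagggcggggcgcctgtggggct
Myl9, the regulatory light chain of smooth muscle myosin, read 10.32, 9.65 and 8.19 in hepatocyte-like cells, 7.17, 6.78, 7.37 and 7.18 in stem cells and 6.55, 6.81 and 7.08 in adult hepatocytes. Vcl, vinculin, read 11.59, 11.33 and 11.09 against 9.41, 9.23, 9.39 and 9.32 in stem cells and 8.47, 8.9 and 8.89 in adult hepatocytes. The hepatocyte-like arrays of Vcl were close together, those of Myl9 were not. The window of Acta2 held no match to the strict spelling. GGAATG, the core bound by TEAD factors, stood in 41.7% of the 24 contractile windows, 15.4% of those of genes called higher and 14.7% of all windows. Windows of the same gene can overlap, as those of Flnc do, so a site can count more than once. Windows of all tested genes held the CArG box in 1.45% and GGAATG in 13.5%. The 6 letters of GGGCGG, read by Sp factors, were in 63.9% of windows of genes called higher and 62.2% of those called lower. They were in 75% of the contractile windows, 46.6% of those of all tested genes and 35.7% of all windows. The contractile windows thus also differed from both baselines in GGGCGG. A match of letters is no evidence of binding.

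Collagen and matrix genes formed the next group. Of 18 fibrillar and associated collagens, 8 lay above and all 8 were higher by the call, while Col10a1 lay below by -0.17 and did not meet it. Col1a1, the main chain of fibrillar collagen with Col1a2, read 12.8, 11.92 and 9.8 in hepatocyte-like cells, 6.31, 6.27, 6.18 and 6.44 in stem cells and 5.91, 6.24 and 6.32 in adult hepatocytes. Col3a1 read 11.27, 9.06 and 7.62 against 5.03, 4.84, 4.95 and 5.41 in stem cells and 5.62, 6.27 and 5.81 in adult hepatocytes. In both, replicate 1 was highest and replicate 3 lowest, with over 2 log2 units between them, yet replicate 3 still exceeded every array of the other kinds. Of 22 basement membrane genes, 9 lay above and 0 below, and 8 were higher by the call, 7 of the 9 and Lama1, whose lowest hepatocyte-like array overlapped stem cells. Lamb1, a laminin chain, had little spread, at 10.72, 10.74 and 10.54 against 6.62, 6.97, 6.27 and 7.02 in stem cells and 5.54, 5.82 and 6.1 in adult hepatocytes.

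Enzymes that build and cut matrix moved in the same direction. Of 17 genes for collagen processing, 11 lay above (64.7%), 0 below and 10 were higher. Lox, which cross-links collagen, read 8.64, 8.19 and 7.87 in hepatocyte-like cells, 4.23, 3.04, 3.89 and 3.6 in stem cells and 4.0, 4.11 and 4.46 in adult hepatocytes. Plod2, a lysyl hydroxylase, read 10.96, 10.26 and 9.94 against 7.77, 6.94, 7.59 and 7.03 in stem cells and 3.78, 3.84 and 3.96 in adult hepatocytes, so that stem cells held a middle place and adult hepatocytes were lowest. Of 22 matrix proteases and inhibitors 13 lay above, 0 below and all 13 were higher. Mmp2, a gelatinase, led them at 11.17, 10.9 and 10.46 against 5.95, 6.91, 6.05 and 6.96 in stem cells and 4.98, 5.73 and 4.78 in adult hepatocytes, followed by Adam12 (3.89), the plasminogen activator Plat (3.52) and the inhibitor Timp2 (3.41). Of 22 matricellular and elastic fibre genes, 13 lay above, 0 below and 13 were higher, among them Fbln2 (4.13), Ccn1 (2.7) and Ccn2 (2.59).

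**Figure D3:**
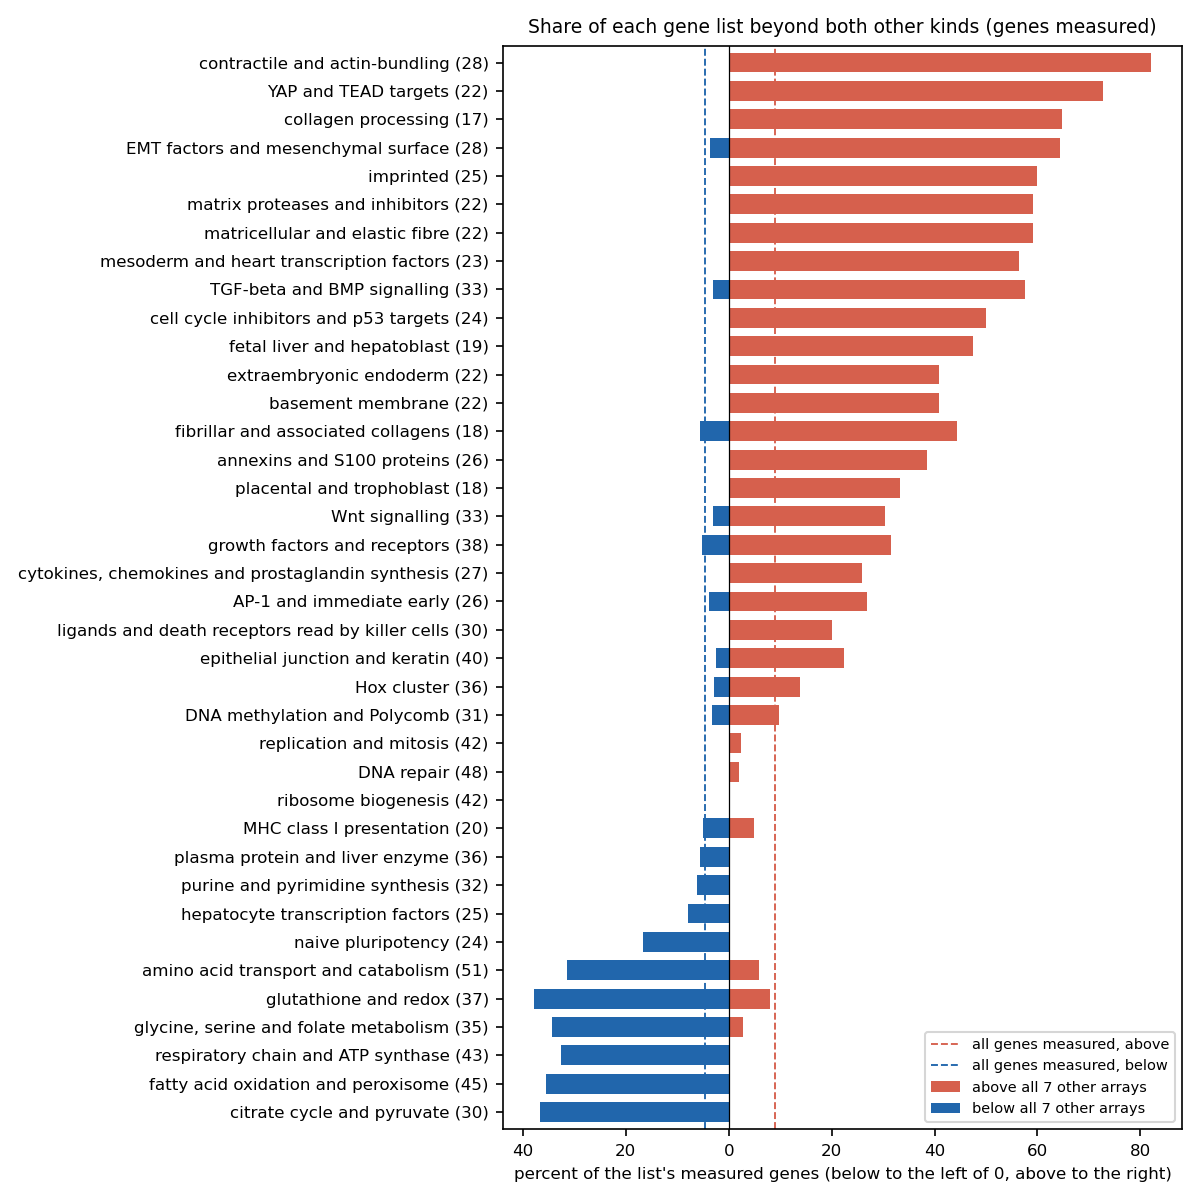
For each of 38 gene lists, the bar to the right gives the percent of its measured genes (number in parentheses) with all hepatocyte-like arrays above all 7 others, and the bar to the left the percent below. Dashed lines mark all 22180 genes, at 9.07% and 4.56%. Contractile genes reach 82.1% above, and the citrate cycle list reaches 36.7% below with 0 above.

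The median difference of each list from the midpoint followed its counts for most lists. Both rest on the same arrays, so the medians are no separate support for the counts. Over all genes the median difference was -0.05. Matrix lists had medians of 1.11 (collagens), 1.3 (basement membrane), 1.99 (matricellular), 2.19 (collagen processing) and 2.2 (proteases and inhibitors). Signalling lists had 2.44 for YAP and TEAD targets and 1.11 for TGF-beta and BMP, but 0.48 for Wnt, 0.63 for growth factors and 0.07 for cytokines. The hepatoblast list stood at 2.82, imprinted genes at 1.82, cell cycle inhibitors at 1.79, and genes of epithelial-mesenchymal transition at 1.2. Metabolic lists had -0.65 for glycine, serine and folate, -1 for fatty acid oxidation, -1 for glutathione, -1.19 for amino acids, -0.69 for the citrate cycle and -0.36 for the respiratory chain. A list's median also moves with members that lie between the other kinds, as the naive pluripotency list shows, at -2 with 16 of 24 members between them.

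Signalling genes were next in the order of roles. TGF-beta ligands drive matrix production in many tissues and are stored in matrix by latent binding proteins. Of 33 genes of TGF-beta and BMP signalling 19 lay above and 14 were higher. Tgfb2 read 8.92, 9.97 and 9.71 in hepatocyte-like cells, 4.81, 4.96, 4.75 and 4.91 in stem cells and 5.13, 5.07 and 5.32 in adult hepatocytes. Tgfb1 read 10.3, 9.57 and 9.24 against 6.61, 6.54, 6.64 and 6.65 in stem cells and 6.86, 7.0 and 6.96 in adult hepatocytes. Both ligands were clear of the other kinds, by 3.59 and 2.24, and Tgfb3 (1.49), the binding proteins Ltbp1 (2.69) and Ltbp3 (1.69), and the transducer Smad3 (1.58) were higher too. Of the receptors, Bmpr2 (1.36) and the co-receptor Tgfbr3 (1.35) were higher, while Tgfbr1 (0.98) and Bmpr1a (0.99) lay above without meeting the call.

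Endoglin (Eng), a TGF-beta and BMP co-receptor of endothelium, was the single gene below on the TGF-beta list and on that of epithelial-mesenchymal transition. It read 5.83, 6.11 and 5.35 in hepatocyte-like cells, 9.12, 9.67, 9.33 and 9.98 in stem cells and 8.58, 9.49 and 9.23 in adult hepatocytes. All 3 hepatocyte-like arrays lay at least 2.47 below every other array, and adult hepatocytes and stem cells did not differ by the call (-0.43 ± 0.27 between them, limma adjusted p = 0.236).

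Known target genes of the co-activator YAP and its partner TEAD lay above in 16 of 22 (72.7%) and below in 0, with 13 higher by the call. Ankrd1, a much-used readout of the pathway, read 8.14, 9.44 and 7.53 in hepatocyte-like cells, 5.33, 5.45, 5.48 and 5.38 in stem cells and 5.19, 5.82 and 5.73 in adult hepatocytes. Ccn2 read 9.75, 10.68 and 9.91 against 6.57, 8.33, 7.06 and 8.15 in stem cells and 5.98, 5.68 and 6.47 in adult hepatocytes. In both genes replicate 2 was the highest hepatocyte-like array. Tgfb2, Ccn1 and Ccn2 stand on other lists too, so these counts are not independent. Axl, a receptor tyrosine kinase, lay 2.78 and Rbms3, an RNA-binding protein, 2.82 from the nearer kind.

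In Wnt signalling, 10 of 33 genes lay above, 1 below and 8 were higher. The secreted antagonists Dkk1 and Dkk2 were both higher. Dkk1 read 9.37, 7.02 and 9.52 in hepatocyte-like cells, lowest in replicate 2, and stayed 1.0 above the other kinds. Dkk2 read 9.17, 6.67 and 6.62, highest in replicate 1, and stayed 1.59 above them. Frzb, another antagonist, read 9.65, 5.39 and 4.9 in hepatocyte-like cells, 3.88, 3.75, 3.57 and 3.56 in stem cells and 4.11, 4.46 and 4.1 in adult hepatocytes. Its distance rested on replicate 1: without that array it was 0.92 in place of 2.42 and the call was lost. The call was also lost without any one adult hepatocyte or stem cell array, where the distance stayed at 2.36 to 2.54. Notum, which removes the lipid from Wnt proteins, lay below at 5.24, 5.85 and 6.95 against 7.96, 7.72, 8.55 and 7.63 in stem cells and 7.81, 8.04 and 7.8 in adult hepatocytes, lowest in replicate 1 and highest in replicate 3.

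Among 38 growth factors and receptors, 12 lay above and 11 were higher, and Fgf1 (-0.85) and Fgfr4 (-0.37) lay below without meeting the call. Igf2, a fetal growth factor, read 10.2, 9.84 and 10.73 in hepatocyte-like cells, 5.67, 5.94, 5.21 and 5.65 in stem cells and 5.27, 5.57 and 5.72 in adult hepatocytes. The receptor gene Pdgfra read 9.29, 7.01 and 8.11 against 5.11, 5.5, 4.9 and 5.07 in stem cells and 5.83, 6.29 and 5.59 in adult hepatocytes. All Igf2 arrays of hepatocyte-like cells lay 3.9 or more above the others, and Pdgfra varied by more than 2 log2 units between hepatocyte-like arrays. Igfbp3 (2.34) and the Kit ligand Kitl (2.29) were also higher.

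Of 27 cytokine, chemokine and prostaglandin genes 7 lay above and 6 were higher, with 12 of the 27 at a hepatocyte-like mean under 5.5. After Ptgs2, the macrophage growth factor Csf1 read 8.05, 9.86 and 10.08 against 4.89, 5.07, 5.7 and 5.12 in stem cells and 6.82, 7.0 and 6.86 in adult hepatocytes. The oncostatin receptor Osmr lay 1.87 from the nearer kind. The chemokine Ccl2 read 5.89, 6.59 and 8.1 in hepatocyte-like cells, highest in replicate 3, and without that array its distance was 0.96 in place of 1.58 and the call was lost.

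Transcription factors of mesoderm and heart lay above in 13 of 23 and below in 0, with 9 higher by the call. Tbx20, a heart and limb mesoderm factor, read 9.74, 9.46 and 8.23 in hepatocyte-like cells, 5.34, 5.45, 5.51 and 5.05 in stem cells and 5.33, 5.71 and 5.08 in adult hepatocytes. Meis1 (2.25) and Meis2 (2.38), partners of Hox proteins, and Gata6 (2.28), used in both mesoderm and extraembryonic endoderm, were also higher. Hand1 read 7.02, 7.57 and 9.65, mostly in replicate 3, and without it lay 1.39 from the nearer kind in place of 2.17. Of 36 Hox genes, 5 lay above (13.9%, against 9.07% of all genes) and 1 below (2.78%, against 4.56%). These shares rest on few genes, and 21 of the 36 had a hepatocyte-like mean under 5.5. Hoxc6, Hoxc8 and Hoxc10 were the 3 called higher (8.33%, against 4.77% of all genes), at 1.4, 1.03 and 1.31. Without hepatocyte-like replicate 1 the latter pair lost the call, at 0.87 and 0.72 in that order. Hoxc8 also lost it under each other scaling (0.93 to 0.98) and without stem cell replicate 1 (0.94), 3 (1.0) or 4 (0.97), and Hoxc10 without adult hepatocyte replicate 1 (1.21). Without hepatocyte-like replicate 3 the number of Hox genes above was 8.

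Genes of epithelial-mesenchymal transition and the mesenchymal surface lay above in 18 of 28 (64.3%), with 14 higher, and 1 lay below and was lower, Eng (-3.33). Cdh11, a mesenchymal cadherin, read 10.82, 9.03 and 7.16 in hepatocyte-like cells, 4.47, 4.0, 4.71 and 4.03 in stem cells and 4.29, 4.65 and 4.95 in adult hepatocytes. Cd44, the hyaluronan receptor, read 8.28, 9.63 and 9.02 against 4.04, 4.52, 4.14 and 3.88 in stem cells and 4.43, 4.85 and 4.86 in adult hepatocytes. Cdh11 was lowest in replicate 3 and Cd44 in replicate 1. Of the classical drivers of the transition, Twist1 (1.04) and Twist2 (1.1) were higher and Snai2 lay above without the call (0.89). Snai1 read 6.33, 5.63 and 6.23 and Zeb1 6.83, 5.58 and 5.04 in hepatocyte-like cells, and both overlapped the other kinds.

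Epithelial genes were present alongside them. Of 40 junction and keratin genes, 9 lay above (22.5%), 1 below and 10 were higher, the 9 and 1 that overlapped. Krt18 and Krt8, the keratin pair of simple epithelia, were highest in hepatocyte-like cells, intermediate in adult hepatocytes and lowest in stem cells. Krt18 read 10.21, 11.57 and 12.18 in hepatocyte-like cells, 9.9, 9.97 and 9.98 in adult hepatocytes and 6.25, 6.19, 6.05 and 6.4 in stem cells. Krt8 read 9.89, 11.34 and 11.32, with adult hepatocytes at 9.03, 9.26 and 9.07 and stem cells at 6.48, 6.76, 6.96 and 6.86. Replicate 1 came closest to adult hepatocytes in both, 0.24 and 0.64 above their highest array, and keratin genes have many close copies that probes may share. Krt19, found in bile duct and hepatoblast epithelium, read 8.74, 10 and 8.68 against 5.27, 5.03, 5.11 and 4.9 in stem cells and 5.26, 5.43 and 5.13 in adult hepatocytes. The claudin Cldn6 (3.94) and the splicing regulator Esrp1 (2.83), both of epithelia, were higher. E-cadherin (Cdh1) read 9.61, 11.35 and 10.58 in hepatocyte-like cells and 10.64, 10.94, 10.58 and 10.95 in stem cells, so that their ranges overlapped.

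Hepatoblast genes lay above in 9 of 19 and below in 0, and 11 were called higher, the 9 and 2 that overlapped. Igf2, Peg3 and Krt19, the farthest of them, also stand on other lists. Afp, the fetal counterpart of albumin, read 9.13, 9.3 and 6.69 in hepatocyte-like cells, 4.53, 4.94, 4.63 and 4.41 in stem cells and 4.91, 4.77 and 4.99 in adult hepatocytes. It was lowest in replicate 3, the array with the highest albumin. Hmga2, an embryonic chromatin protein, read 9.88, 9.61 and 9.16 against 6.0, 5.81, 6.14 and 6.39 in stem cells and 5.86, 6.11 and 5.25 in adult hepatocytes. Gpc3 (2.36), a heparan sulfate proteoglycan of fetal liver, and Dlk1 (2.48), a hepatoblast surface protein, were higher. Extraembryonic endoderm genes lay above in 9 of 22 with 10 called higher, among them Col4a1, Lamb1 and Gata6, which other lists share. Trophoblast genes lay above in 6 of 18 with 4 called higher, of which Plac1 read 5.75, 5.72 and 8.63, mostly in replicate 3, and lay 1.15 from its nearer kind without that array in place of 2.12.

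Imprinted genes, which are expressed from 1 parental copy and are active mainly in fetal and placental growth, lay above in 15 of 25 (60%) and below in 0, with 15 called higher, 14 of them without overlap. Peg3 read 12.54, 12.19 and 12.13 in hepatocyte-like cells, 8.28, 8.05, 7.9 and 8.1 in stem cells and 7.97, 7.62 and 7.28 in adult hepatocytes. Zim1, its neighbour in the same imprinted region, read 9.37, 8.34 and 7.6 against 4.25, 3.99, 3.95 and 4.27 in stem cells and 3.23, 3.6 and 4.03 in adult hepatocytes. Peg3 spread little between hepatocyte-like arrays, and Zim1 was highest in replicate 1 and lowest in replicate 3. Peg10 (3.19), Sgce (2.64), which adjoins it, Mest (2.44) and Cdkn1c (1.67), a cyclin-dependent kinase inhibitor, were among the others.

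One imprinted region, the Dlk1-Dio3 domain, held several genes above beside each other. This domain carries Dlk1 and Dio3, expressed from the paternal copy, and the non-coding RNAs Meg3 and Rian with a large cluster of miRNA and snoRNA genes, expressed from the maternal copy. Of 43 miRNA genes of the domain measured here 14 lay above and 0 below, against 3.86% above among the other 440 miRNA genes. Of its 11 other genes measured, 5 lay above, namely Dlk1, Rian and 3 snoRNA genes. The 5 miRNA genes that met the call were Mir493, Mir380, Mir323, Mir329 and Mir382, and their mature RNAs are printed from the RefSeq table of GRCm38.p6, all on the plus strand, with the seed (bases 2 to 8) in capitals, to show which share target letters.
miR-493-5p (chr12:109580243-109580261): uUGUACAUgguaggcuuuc
miR-493-3p (chr12:109580283-109580305): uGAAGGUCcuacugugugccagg
miR-380-5p (chr12:109711806-109711827): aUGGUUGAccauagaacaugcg
miR-380-3p (chr12:109711842-109711863): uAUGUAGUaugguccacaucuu
miR-323-5p (chr12:109712523-109712544): aGGUGGUCcguggcgcguucgc
miR-323-3p (chr12:109712558-109712578): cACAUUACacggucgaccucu
miR-329-5p (chr12:109713503-109713524): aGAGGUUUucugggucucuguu
miR-329-3p (chr12:109713541-109713562): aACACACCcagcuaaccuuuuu
miR-382-5p (chr12:109733781-109733802): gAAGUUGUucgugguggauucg
miR-382-3p (chr12:109733819-109733840): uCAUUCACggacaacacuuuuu
No seed was shared among these 10. Mir493 read 6.94, 5.66 and 6.52 in hepatocyte-like cells, 4.35, 4.76, 4.77 and 5.07 in stem cells and 2.99, 4.1 and 3.32 in adult hepatocytes. Mir382 read 6.77, 5.78 and 5.99 against 4.69, 4.79, 4.36 and 4.8 in stem cells and 3.54, 4.21 and 4.26 in adult hepatocytes. Replicate 2 was the lowest hepatocyte-like array in both. Mir380 lay 1.05, Mir323 1.43 and Mir329 1.17 above its nearer kind. Of the 14 domain miRNA genes above, 7 had means under 5.5 in all 3 kinds, Mir380 and Mir323 among them, so their differences lie in the dim range. Which RNA the probes of a miRNA gene read, the mature form, its precursor or a host transcript, is not given in the sources used here.

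Long transcripts of the Dlk1-Dio3 domain split. Rian read 10.52, 9.85 and 9.79 in hepatocyte-like cells, 8.55, 8.83, 8.61 and 8.76 in stem cells and 4.19, 3.85 and 3.46 in adult hepatocytes, so that it was well measured in both cultured kinds and low in liver. Dlk1 read 8.62, 7.04 and 7.13 against 5.04, 5.39, 4.85 and 5.17 in stem cells and 4.77, 5.0 and 5.28 in adult hepatocytes, low in both other kinds. Meg3 read 5.38, 5.58 and 5.08 in hepatocyte-like cells and 5.46, 4.66, 5.2 and 5.31 in stem cells, with overlap and all values near or under 5.5. Dio3 lay under 5.5 on all 10 arrays, at 4.51, 4.26 and 4.08 in hepatocyte-like cells. The miRNA genes Mir380, Mir1197, Mir323, Mir758 and Mir329 formed an unbroken run of 5 neighbours above, in RefSeq order of measured genes.

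**Figure D4:**
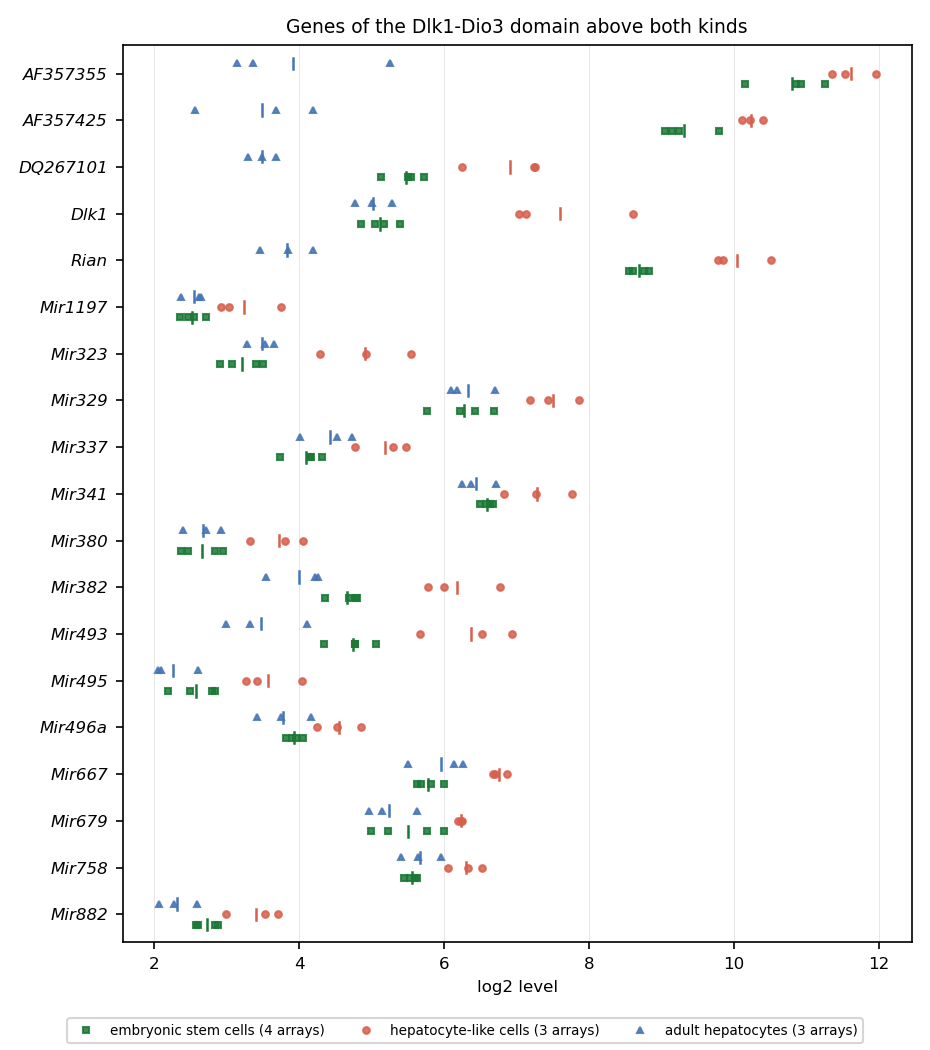
Log2 level on each array of the 19 genes of the Dlk1-Dio3 domain that lay above both other kinds, with a vertical bar at each group mean. For Rian and the snoRNA genes stem cells come close below hepatocyte-like cells while adult hepatocytes are far lower. For Dlk1 and most miRNA genes both other kinds are low.

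Outside the domain, 4 further miRNA genes were called higher and 1, Mir107, was called lower. Over all 483 miRNA genes 31 lay above and 10 below. Mirlet7e, a let-7 family member, read 5.84, 5.91 and 5.52 in hepatocyte-like cells, 4.39, 4.52, 4.5 and 4.52 in stem cells and 4.07, 4.93 and 4.75 in adult hepatocytes. Mir107 read 5.51, 5.32 and 5.25 against 6.6, 6.59, 6.03 and 6.34 in stem cells and 6.19, 6.86 and 6.14 in adult hepatocytes. Hepatocyte-like levels of both lay close to 5.5, so they are dim. The mature forms with bases 2 to 8 in capitals are printed because the let-7 seed is the one best known for its rise in differentiating cells.
let-7e-5p (chr17:17830366-17830387, plus strand): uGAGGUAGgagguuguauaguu
miR-107-3p (chr19:34820700-34820722, minus strand): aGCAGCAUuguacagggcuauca

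Cell cycle inhibitors and p53 targets lay above in 12 of 24 and below in 0, with 9 called higher. Cdkn2b, an inhibitor of cyclin D kinases that TGF-beta can induce, read 8.34, 9.19 and 8.68 in hepatocyte-like cells, 6.36, 6.94, 6.65 and 6.67 in stem cells and 5.85, 6.36 and 6.02 in adult hepatocytes. Plk2, a p53 target kinase, read 9.93, 10.68 and 10.62 against 8.07, 8.43, 8.45 and 8.26 in stem cells and 6.9, 6.92 and 6.87 in adult hepatocytes. In both genes the hepatocyte-like arrays lay within 1 log2 unit. Adult hepatocytes were lowest in Plk2. In Cdkn2b they overlapped stem cells and did not differ from them by the call (-0.58 ± 0.22, limma adjusted p = 0.052). Cdkn2a (1.18) and Mdm2 (1.25) were also higher. Of 42 replication and mitosis genes, 1 lay above, Ccnd2 at 3.29, and 0 below, while 38 had a mean between those of the other kinds. Of 48 DNA repair genes 1, Ercc5 (1.44), lay above and 0 below. Of 42 genes of ribosome biogenesis 0 lay beyond either side.

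Immediate early and AP-1 genes lay above in 7 of 26, below in 1 (Ier2, -1.02) and were called higher in 8, of which 6 did not overlap. Dusp5 (2.48), a MAP kinase phosphatase, Klf6 (2.3) and Fosl2 (2.25) were farthest. Without hepatocyte-like replicate 3, 12 of the 26 lay above.

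The series title concerns the killer cell receptor NKG2D, so killer cell ligands, death receptors and related genes were listed. Of 30 measured, 6 lay above (20%, against 9.07% of all genes) and 0 below. The call was met by 4 on the higher side (13.3%, against 4.77%). Tnfrsf12a, the receptor of TWEAK, read 9.34, 10.87 and 10.03 in hepatocyte-like cells, 6.3, 7.07, 6.38 and 7.02 in stem cells and 6.88, 6.41 and 6.39 in adult hepatocytes. Cd24a, a surface sialoglycoprotein, read 10.48, 11.47 and 11.97 against 8.28, 9.36, 8.45 and 9.41 in stem cells and 5.56, 5.36 and 5.27 in adult hepatocytes, so that stem cells held the middle. Serpinb9, an inhibitor of granzyme B inside the cell and not a ligand or receptor, lay 1.5 from the nearer kind. The death receptor gene Tnfrsf10b lay above stem cells by 0.86 and did not meet the call. H60b, the one NKG2D ligand gene called, overlapped, at 8.05, 5.12 and 7.54 in hepatocyte-like cells and 5.18, 3.81, 5.54 and 4.51 in stem cells. Of 20 genes of MHC class I presentation, 1 lay above (5%), 1 below (5%) and 0 were called by limma in either direction. These shares lay near or under the 9.07% above and 4.56% below of all genes.

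The 15 genes farthest below both kinds were of several kinds, among them enzymes, a nuclear receptor, secreted proteins and a transporter. Chchd10, a protein of the mitochondrial intermembrane space, read 6.09, 5.85 and 7.91 in hepatocyte-like cells, 11.09, 11.59, 11.17 and 11.63 in stem cells and 11.26, 11.55 and 11.5 in adult hepatocytes. Its distance was -4.75 ± 0.39 from stem cells and -4.82 ± 0.41 from adult hepatocytes, and replicate 3 was nearest to both. Ephx2, soluble epoxide hydrolase, read 4.67, 5.96 and 5.67 against 9.93, 9.88, 10.02 and 9.73 in stem cells and 11.14, 11.43 and 11.25 in adult hepatocytes. Pipox, a peroxisomal oxidase of pipecolic acid and sarcosine, read 4.94, 5.1 and 5.72 against 9.69, 9.16, 9.4 and 8.93 in stem cells and 11.61, 11.14 and 11.23 in adult hepatocytes. In both of these, stem cells already expressed the gene clearly and adult hepatocytes lay higher still.

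Nr5a2, a nuclear receptor that acts both in pluripotent cells and in liver bile acid synthesis, stood on 2 lists and lay below. It read 5.09, 4.92 and 5.58 in hepatocyte-like cells, 9.35, 9.13, 9.52 and 8.97 in stem cells and 9.64, 9.61 and 9.62 in adult hepatocytes. The other kinds did not differ by the call (0.38 ± 0.19 between adult hepatocytes and stem cells, limma adjusted p = 0.132), and the gap to hepatocyte-like cells was 3.4 below the nearest of them. Of 24 naive pluripotency genes 4 lay below and 2 were lower by the call, Nr5a2 and Tfcp2l1 (-1.02), the latter lost without hepatocyte-like replicate 1 (at -0.79) or adult hepatocyte replicate 2 (at -0.95). Of 25 hepatocyte transcription factors 2 lay below (8%, against 4.56% of all genes), Nr5a2 and Mlxipl (-0.97, not called), and 0 above.

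The secreted proteins Fetub and Apoe were the 2 plasma protein genes below, and Apoc1 was among the first 15. Fetub, a fetuin, read 5.15, 5.68 and 6.27 in hepatocyte-like cells, 8.81, 9.42, 9.12 and 9.42 in stem cells and 12.19, 12.21 and 12.00 in adult hepatocytes. Apoc1, an apolipoprotein, read 5.81, 5.83 and 6.3 against 8.21, 9.31, 8.67 and 9.35 in stem cells and 12.09, 11.79 and 11.94 in adult hepatocytes. Stem cells held a middle level in both. Without hepatocyte-like replicate 3, 8 of the 36 plasma protein and liver enzyme genes lay below in place of 2. The rest of the first 15 below were Cth, Gldc and Eng, described elsewhere, the ubiquitin ligase Rnf125 (-3.15), the aldehyde oxidase Aox3 (-3.08), the zinc transporter Slc39a4 (-2.88), the dihydrodiol dehydrogenase Dhdh (-2.82), the acetyltransferase Kat2b (-2.76) and Gstp1.

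Glycine, serine and folate metabolism was the list with most lower calls. This pathway moves single carbon units from serine and glycine onto folate and then into purines, thymidine and methionine, and it is active both in stem cells and in liver. Of 35 measured genes, 12 lay below (34.3%, against 4.56% of all genes), 1 above and 11 were lower by the call (31.4%, against 1.10%). The glycine cleavage genes Gldc and Amt were both among them. Gldc read 6.16, 6.01 and 7.14 in hepatocyte-like cells, 9.69, 9.13, 9.78 and 9.03 in stem cells and 10.31, 10.16 and 10.15 in adult hepatocytes. Amt read 6.14, 5.93 and 7.69 against 9.19, 9.96, 9.46 and 9.9 in stem cells and 9.32, 9.14 and 9.02 in adult hepatocytes. Replicate 3 was the nearest to the other kinds in both, and still lay 1.9 and 1.33 below them.

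Serine hydroxymethyltransferases, which pass the carbon from serine to folate, were lower in both forms. Cytosolic Shmt1 read 7.12, 6.75 and 7.34 in hepatocyte-like cells, 9.49, 9.16, 9.72 and 9.09 in stem cells and 10.49, 10.43 and 10.51 in adult hepatocytes. Mitochondrial Shmt2 read 9.52, 8.72 and 8.88 against 10.7, 11.00, 11.08 and 11.04 in stem cells and 10.34, 10.87 and 10.87 in adult hepatocytes. The folate enzyme Mthfd1 read 8.09, 8.4 and 8.71 against 10.1, 10.47, 10.28 and 10.32 in stem cells and 10.54, 10.67 and 10.48 in adult hepatocytes. In Shmt2 and Mthfd1 the other kinds did not differ by the call (limma adjusted p = 0.378 and 0.249 for adult hepatocytes against stem cells), so hepatocyte-like cells stood alone at the low end.

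The enzymes that turn homocysteine into cysteine were lower too. Cbs, the first step, read 6.11, 5.96 and 6.01 in hepatocyte-like cells, 7.92, 8.93, 8.56 and 8.9 in stem cells and 11.00, 10.93 and 11.00 in adult hepatocytes. Cth, the next, read 5.85, 4.82 and 6.05 against 8.43, 9.19, 9.26 and 9.06 in stem cells and 10.82, 10.58 and 10.83 in adult hepatocytes. Hepatocyte-like arrays of Cbs were close together, and adult hepatocytes were highest in both genes. Ahcy, which makes homocysteine, lay -1.29 and the folate dehydrogenase Aldh1l1 -1.9 from the nearer kind. The single gene above was Mthfd2l, a mitochondrial folate enzyme, at 7.68, 6.81 and 8.04 against 4.69, 5.57, 4.76 and 5.11 in stem cells and 5.61, 5.59 and 5.25 in adult hepatocytes. Purine and pyrimidine synthesis had 2 of 32 genes below (6.25%, against 4.56% of all genes), Prps1 (-1.43) and Tk1 (-1.24), and 0 above. Both were lower by the call (6.25%, against 1.10%). Without hepatocyte-like replicate 3 the number below was 5, and without replicate 2 Tk1 lay at -0.96 and lost the call.

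**Figure D5:**
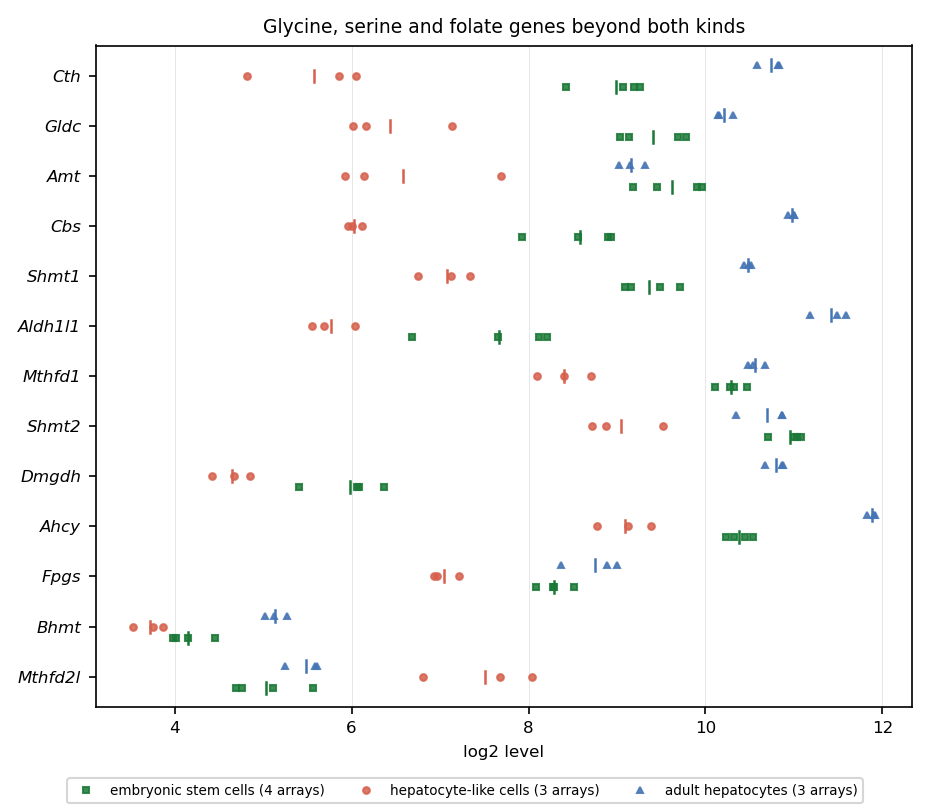
Log2 level on each array of the 13 glycine, serine and folate genes beyond both other kinds, with a vertical bar at each group mean. In the first 12 rows the hepatocyte-like arrays lie lowest, and in Mthfd2l they lie highest. Adult hepatocytes exceed stem cells in most rows but not in Amt or Shmt2.

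Fatty acid oxidation and peroxisome genes lay below in 16 of 45 (35.6%) and above in 0, with 8 lower by the call. Cpt1a, which admits fatty acids to mitochondria, read 7.69, 7.39 and 7.6 in hepatocyte-like cells, 9.95, 10.17, 10.05 and 10.28 in stem cells and 10.28, 10.87 and 10.35 in adult hepatocytes. Ehhadh, a peroxisomal oxidation enzyme, read 4.89, 5.05 and 5.01 against 6.65, 6.75, 6.92 and 6.51 in stem cells and 10.6, 10.6 and 10.46 in adult hepatocytes. In Cpt1a the other kinds lay close together, while Ehhadh was far higher in adult hepatocytes than in stem cells. Phyh (-1.71), which oxidises phytanic acid, and Acadm (-1.21), a medium-chain dehydrogenase, were also lower.

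Central mitochondrial genes were displaced by less. Of 30 citrate cycle and pyruvate genes, 11 lay below (36.7%) and 0 above, yet 1 met the call. That gene was the pyruvate carrier Mpc1, at 7.84, 7.29 and 7.89 in hepatocyte-like cells, 8.42, 9.05, 9.03 and 8.8 in stem cells and 11.62, 11.49 and 11.4 in adult hepatocytes. Without hepatocyte-like replicate 2 it lay at -0.95, and with its clusters averaged at -0.8, and lost the call. All 4 succinate dehydrogenase genes lay below, at -0.61 for Sdha, -0.48 for Sdhb, -0.57 for Sdhc and -0.68 for Sdhd. Of 43 respiratory chain and ATP synthase genes, 14 lay below (32.6%) and 0 above, and 1 met the call. Cyc1, cytochrome c1, read 8.23, 7.66 and 8.17 against 9.05, 9.42, 9.29 and 9.34 in stem cells and 9.11, 9.12 and 9.31 in adult hepatocytes, and lay at -0.98 without hepatocyte-like replicate 2, where the call was lost. The other 13 lay between -0.27 (Ndufb10) and -0.88 (Ndufv1) from the nearer kind.

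Glutathione and redox genes lay below in 14 of 37 (37.8%), above in 3, and were called lower in 4 and higher in 2. Sod2, the mitochondrial superoxide dismutase, read 8.89, 8.66 and 8.93 in hepatocyte-like cells, 11.13, 11.33, 11.32 and 11.31 in stem cells and 11.01, 10.99 and 10.99 in adult hepatocytes. Gstp1, a glutathione transferase, read 8.12, 7.18 and 8.1 against 10.48, 11.69, 10.66 and 11.62 in stem cells and 10.3, 10.53 and 10.6 in adult hepatocytes. Gpx3 and Gpx8, glutathione peroxidases of plasma and endoplasmic reticulum, lay above, at 2.61 and 2.41. The dismutase and this peroxidase pair thus lay on opposite sides. Gstp1 lies in a run of 4 neighbouring genes below, Ndufv1, Gstp1, Gstp2 and Gstp3. The Gstp genes are close copies of each other, so probes may read more than 1 of them.

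Amino acid transport and catabolism lay below in 16 of 51 (31.4%) and above in 3, with 8 lower and 2 higher by the call. Got1, the cytosolic aspartate aminotransferase, read 8.59, 8.95 and 8.99 in hepatocyte-like cells, 10.79, 11.2, 10.67 and 11.16 in stem cells and 11.48, 10.83 and 11.03 in adult hepatocytes. Aldh2, an aldehyde dehydrogenase, read 8.77, 7.91 and 8.93 against 10.46, 11.05, 10.94 and 11.02 in stem cells and 12.04, 12.22 and 12.22 in adult hepatocytes. In Got1 the other kinds overlapped, and Aldh2 was highest in adult hepatocytes. Bckdhb (-2.12), of branched-chain keto acid breakdown, and Gpt2 (-2.02), a mitochondrial alanine aminotransferase, were lower. The cystine transporter Slc7a11 lay above at 1.23, with hepatocyte-like levels of 4.57, 5.72 and 4.48.

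Marker lists of other cell types were counted the same way. Fibroblast markers lay above in 9 of 13 and were called higher in 7. Their mean level was 8.31, 7.19 and 6.67 in hepatocyte-like replicates 1, 2 and 3, against 4.70 to 4.87 in stem cells and 5.35 to 5.56 in adult hepatocytes. This order of replicates is that of Cdh11 above, and also of Col1a1 and Col3a1. The latter pair are on the list and help to set its mean, so their order is no separate observation. The part of fibroblasts in the counts was not tested. Several of these markers are themselves matrix genes of the lists above. Mesothelial markers lay above in 3 of 9 (Krt19, Upk1b and Wt1), smooth muscle and heart markers in 3 of 18, bile duct markers in 2 of 9, neural markers in 2 of 17 and stellate cell markers in 1 of 13 (Ecm1, 1.48). Against 9.07% of all genes, neural markers (11.8%) and stellate cell markers (7.69%) lay near the background, and the other lists are small. Without hepatocyte-like replicate 3, 8 of 18 smooth muscle and heart markers and 4 of 13 stellate cell markers lay above.

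Vessel and blood markers differed in their counts. Of 16 macrophage markers, 0 lay above and 0 below, and their mean level was 4.63 to 4.82 in hepatocyte-like cells, 4.70 to 4.77 in stem cells and 6.03 to 6.28 in adult hepatocytes. Of 16 endothelial markers 3 lay below (18.8%, against 4.56% of all genes) and 2 were called lower (12.5%, against 1.10%). These were Eng, Tek (-1.61) and Pecam1 (-0.84, not called). The 1 endothelial marker above was Flt1, at 8.02, 8.5 and 8.93 against 5.11, 5.11, 5.16 and 4.65 in stem cells and 6.07, 6.4 and 6.26 in adult hepatocytes. Pecam1 is also expressed by stem cells, at 9.87, 9.46, 9.25 and 9.49 here. Of 14 cartilage and bone markers and of 8 erythroid and lymphocyte markers, 0 lay above and 0 below, and 1 cartilage and bone marker was called lower with overlap. The DNA methylation and Polycomb list had 3 of 31 genes above, among them Dnmt3a (0.53) and Tet3 (0.81), 1 below, Bmi1 (-0.36), and 0 called by limma in either direction. Its shares, 9.68% above and 3.23% below, lay near the 9.07% and 4.56% of all genes. The gaps to the nearest other array were 0.055 for Dnmt3a, 0.329 for Tet3 and 0.006 for Bmi1.

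The edge of the rule was thin in places. Tnfrsf1a, a TNF receptor, was just inside above, with a lowest hepatocyte-like array only 0.005 over the highest adult hepatocyte array. Rspo3, a Wnt agonist, was just outside, with an overlap of 0.036. Gstm2 was just inside below, by 0.005, and Etfa just outside, by the same amount. With a margin of 0.5 between the nearest arrays, 856 genes lay above and 240 below, and with a margin of 1, 424 and 96. Of the genes above, 181 had all 3 group means under 5.5, and of those below 215 did. Olfactory and vomeronasal receptor genes made up 37 of all genes below and 6 of those above. The number of such receptor genes measured was not counted, so these counts cannot be set against the 4.56% and 9.07% of all genes.

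Hepatocyte-like arrays spread more in genes above than in genes below. The median SD between the 3 arrays was 0.306 for genes above, 0.185 for genes below and 0.243 over all genes. In 105 genes above and 3 below the arrays spanned over 2 log2 units. Replicate 1 was the lowest of the 3 in 835 genes above. Each of the 3 replicates was the highest in many genes above, 604 for replicate 1, 648 for replicate 2 and 760 for replicate 3.

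Genes beyond both kinds were spread over the chromosomes, with few unbroken runs. Among the chromosomes counted, the share above ran from 6.88% on chromosome 7 to 12.7% on chromosome 12, against 9.07% of all genes. Chromosome 12 holds the Dlk1-Dio3 domain. The X chromosome had 11.7% of its genes above. Besides the miRNA run, the longest run above was of 5 genes on chromosome 3, Lmo4, Hs2st1, Selenof, Sh3glb1 and Clca3a1. Runs of 4 were Yaf2, Zcrb1, Pphln1 and Prickle1 on chromosome 15 and Amer1, Asb12, Zc4h2 and Zc3h12b on the X chromosome. Lmo4, a LIM domain transcription cofactor, lay 1.53 and Prickle1, of planar cell polarity, 1.64 above the nearer kind.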

How the data were processed

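Per the submitters' processing notes, RMA, oligo 1.38.0, R 3.3.1 and the Transcriptome Analysis Console were used on these arrays, with their roles not stated. The authors deposited 1 table of log2 values for 41345 transcript clusters on 10 arrays, with array medians between 4.91 and 5.07. The deposited log2 values were used without further normalization. The genome build of the array annotation is not given in the sources used here. Genes were joined to the RefSeq tables by Entrez gene identifier, not by position.

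Clusters with exactly 1 gene symbol were kept (23521, against 1814 with several and 16010 with none). For 1082 genes with more than 1 cluster, the cluster brightest on average was taken. Of the second clusters of genes above, 20 of 159 also lay above, and of those of genes below, 13 of 51 also lay below. Most second clusters thus did not meet the rule, and the values given for such genes are those of the brightest cluster alone. Cd24a, Aldh2, Phyh, Smtn, Notum and Mpc1 are among the named genes with 2 clusters. With clusters averaged, 1 of 129 named genes, Mpc1, lost its call.

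All 10 arrays were fitted together in limma 3.58.1 (R 4.3.3), with 7 residual and 5.34 prior degrees of freedom and Benjamini-Hochberg adjustment over 22180 genes. The contrast with the midpoint weighted hepatocyte-like cells by 1 and each other kind by -0.5. Calls used an adjusted p of 0.05 and a minimum log2 difference of 1. The fit was first tested on simulated data. In each direction, the text names the first 15 genes called beyond both kinds, ordered by the distance to the nearer kind and leaving out clone names, small RNAs and pseudogenes, then up to 4 genes per list in the same order, and defining genes by role. The genes just inside and outside the rule were taken among listed genes. Members and gene lists were chosen with earlier results of these data known, and lists share genes. The miRNA genes, the genes of the neighbour runs and some further list members named with their values were chosen after their values were seen.

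Alternatives were other scalings (median, quantile, cyclic loess), a filter on genes under 5.5 in every group, clusters averaged or kept apart, other variance models, the replicate number as a block, other thresholds and margins, and leaving out each array. List counts were also taken without hepatocyte-like replicate 3, with median centring, without dim genes and with clusters averaged, alternatives chosen after seeing the data. Figures were drawn with matplotlib 3.10.9.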

Additional observations from a re-analysis of the deposited data

Results flagged for a closer look

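In 7 of 129 named genes, 1 of the 4 stem cell arrays stood far from the other 3, judged by its gap to the nearest of them as a share of the group's whole range. Chance alone marks about 1 in 20 groups in this way. Only stem cells were looked at, since the other groups hold 3 arrays.

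Anxa1 had a share of 0.982, with 1 array at 7.58 and the others from 6.383 to 6.404. Upk1b had 0.959, with 1 array at 4.93 and the others from 5.33 to 5.35. Sod2 had 0.937, with 1 array at 11.13 and the others from 11.31 to 11.33. For Flt1 the share was 0.907, with 1 array at 4.65 and the others from 5.11 to 5.16. For Nrk it was 0.901, with 1 array at 3.41 and the others from 4.15 to 4.23. Pmp22 had 0.858, with 1 array at 5.78 and the others from 5.41 to 5.46. Dhdh had 0.837, with 1 array at 9.04 and the others from 8.40 to 8.51. All 7 genes kept their call in each alternative that left out a stem cell array.

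The report used clusters with exactly 1 gene symbol. Among the other 17824 clusters, 811 had all hepatocyte-like arrays above all 7 others and 521 had them all below.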

How the results depend on the processing

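Of 129 named genes followed through every alternative, 102 kept their call in each and 0 changed direction. The rule took 856 genes above and 240 below with the nearest arrays at least 0.5 apart, and 424 and 96 with 1. Leaving out each array in turn gave 1111 to 1666 genes below. With a log2 difference of at least 2, 329 genes were called higher and 53 lower than both kinds, and with no minimum 1773 and 623. For the midpoint contrast these settings gave 567 higher and 589 lower, and 3555 and 2931. The median difference from the midpoint over all genes was -0.05, and -0.08, -0.05 and -0.03 after median, quantile and loess scaling.

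Deviations of same-numbered arrays from their group means correlated between -0.185 and 0.137, within the range of differently numbered arrays, -0.246 to 0.228. With so few arrays per kind, these correlations cannot show whether samples share a culture or batch. In several genes stem cell replicates 1 and 3 lay apart from 2 and 4. Gstp1 read 10.48 and 10.66 against 11.69 and 11.62, and Gldc 9.69 and 9.78 against 9.13 and 9.03. Other genes, such as Anxa1, did not part this way. The genes that did were not counted, the cause was not tested, and the main fit took each array as a separate sample. With the replicate number as a block, 1037 genes were called higher and 243 lower than both kinds, and 1846 and 1471 against the midpoint. Hoxc8 lost its call with the block, at 0.97.

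Without hepatocyte-like replicate 3, the MHC class I list had 2 genes above and 3 below, and the TGF-beta and the DNA methylation lists had 2 below each. After median centring, 5 endothelial markers and 3 MHC class I genes lay below. The causes were not tested. Depth has no counterpart here: 181 genes above and 215 below had all group means under 5.5, where array signal limits what a difference shows.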
